A study of Homo sapiens with 24 samples.

Results

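The metallothioneins are a family of small proteins, rich in cysteine, that bind zinc and copper and also take up cadmium. The genes followed here were MT1A, MT1E, MT1F, MT1G, MT1H, MT1M, MT1X and MT2A, found by their symbols as 8 of the 28307 genes in a table of raw read counts. The table held 24 libraries in 8 groups of 3. It covered 2 established human cell lines, SUM159 from a breast carcinoma and SW620 from a colon carcinoma. Adherent cells received the antibiotic nifuroxazide (NIF) or its solvent DMSO for 30 h. Cells were sorted with the ALDEFLUOR assay into cells of high aldehyde dehydrogenase activity (ALDHbr) and of low activity (ALDHneg). Each line thus gave ALDHbr DMSO, ALDHbr NIF, ALDHneg DMSO and ALDHneg NIF libraries. The study's RNA-seq methods do not spell out whether sorting came before or after treatment. The NIF comparisons set NIF against DMSO libraries within each gate. The study reports a smaller share of ALDHbr cells under NIF. A gate set after treatment therefore need not hold the same cells under NIF and DMSO, and this was not tested. Each line is a single cell line, and a gate set on enzyme activity need not hold the same kind of cell in both lines.

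Metallothionein genes are induced by metals through MTF1, a zinc-sensing transcription factor that binds metal response elements in their promoters. Glucocorticoids and cytokine signals that act through STAT3 can also raise them. The proteins buffer free zinc, store copper and react with oxidants, and in epithelial cells MT2A and MT1X are usually among the abundant members.

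By the RefSeq annotation of GRCh38.p14, the 8 genes are protein coding and lie in 1 block of 75.6 kb on chromosome 16, from 56608584 to 56684196. MT2A is the first gene of the block, at chr16:56608584-56609497, followed by MT1E at chr16:56625781-56627112. MT1M, MT1A, MT1F, MT1G and MT1H come next, and MT1X is the last, at chr16:56682470-56684196. Promoter windows, from 250 bases before to 50 bases after the gene start, were available for 3 of the 8 genes. These were MT2A, MT1X and MT1H, and all 3 windows are shown. MT2A and MT1X varied together in SUM159, while MT1H was almost without reads. Capitals mark the core of the metal response element, searched as TGCACNC and TGCGCNC on both strands, and each sequence runs 5′ to 3′ on the plus strand (RefSeq, GRCh38.p14).
MT2A, chr16:56608334-56608633: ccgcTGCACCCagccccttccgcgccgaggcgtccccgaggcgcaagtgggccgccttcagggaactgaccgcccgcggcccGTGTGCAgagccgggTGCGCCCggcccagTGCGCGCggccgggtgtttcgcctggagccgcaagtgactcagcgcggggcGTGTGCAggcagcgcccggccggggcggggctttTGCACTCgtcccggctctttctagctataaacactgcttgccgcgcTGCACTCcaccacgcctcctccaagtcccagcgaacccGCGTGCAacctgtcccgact
MT1X, chr16:56682220-56682519: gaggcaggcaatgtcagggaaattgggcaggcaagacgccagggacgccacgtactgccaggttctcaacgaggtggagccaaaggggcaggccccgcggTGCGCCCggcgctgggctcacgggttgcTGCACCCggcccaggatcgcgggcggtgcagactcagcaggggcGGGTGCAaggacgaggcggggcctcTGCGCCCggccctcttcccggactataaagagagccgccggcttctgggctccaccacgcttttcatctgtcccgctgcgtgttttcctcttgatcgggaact
MT1H, chr16:56669564-56669863: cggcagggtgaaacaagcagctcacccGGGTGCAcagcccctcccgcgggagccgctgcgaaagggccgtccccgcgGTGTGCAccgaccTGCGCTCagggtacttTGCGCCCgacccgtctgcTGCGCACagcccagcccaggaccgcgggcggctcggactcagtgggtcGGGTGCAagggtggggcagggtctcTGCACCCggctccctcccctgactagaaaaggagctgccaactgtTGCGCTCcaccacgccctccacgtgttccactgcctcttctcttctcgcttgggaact
The MT2A window held 8 cores, the MT1X window 4 and the MT1H window 8, and no core overlapped another. Of 35116 promoter windows of 300 bases, 29.6% held at least 1 such core, 0.601% held at least 4 and 0.0199% held at least 8. The core of the antioxidant response element, TGACNNNGC, occurred once in the MT2A window, once in the MT1X window and not in the MT1H window, against 13.3% of all windows with at least 1. These are matches of letters only, and MT1H, with 8 cores, had 1 read in the whole series.

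Library totals ran from 30253187 to 43127948 counts in SUM159 and from 31259948 to 41573418 in SW620. The labels of the lines were checked on marker genes. All 10 mesenchymal markers were above the count filter in SUM159, with a summed level of 7451 to 9645 CPM (counts scaled to a common library total), against 5 of 10 and 14.8 to 50.1 CPM in SW620. Of 10 colon epithelial markers, 10 passed in SW620 (8692 to 10908 CPM summed) and 1 in SUM159 (229 to 397 CPM), where CDX1, CDX2, CDH17 and GPA33 had under 10 counts in every library. ALDH1A1, the enzyme that the assay reads in many cell types, was 8.11 log2 higher in ALDHbr than in ALDHneg SUM159 cells under DMSO (SE 0.29), but 0.55 higher in SW620 (SE 0.05). Under NIF against DMSO it was called lower in both SW620 populations and was called in neither SUM159 population. In SW620 the second ALDHbr DMSO library stood apart from the other two of its group, also in the metallothioneins, and results that rest on it are given with and without it.

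Of the 8 members, 4 were too low to judge in both lines. MT1H had 1 count in 1 SW620 library, MT1M had 1 count in 1 SUM159 library, MT1A had 18 counts in all and at most 5 in a library, and MT1G had 72 counts in all and at most 9. MT1F, another metal-binding isoform, was at 0 in every SUM159 library, where a count of 0 allows up to 0.0676 to 0.102 CPM (3 counts), and held 4 to 16 counts in each SW620 library. The remaining 3, MT2A, MT1X and MT1E, carried nearly all reads of the family and passed the filter in both lines. Another 7 rows for metallothionein genes or pseudogenes outside the 8 had 1 to 9 counts over all libraries, among them 2 counts for MT3, the brain form, and 1 for MT4, the form of squamous epithelia. No test was run on the 4 low members.

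The lines differed most in how much MT2A they made. In SUM159 the family summed to 1059 to 1979 CPM, or 0.107 to 0.198% of all counts of a library. In SW620 it summed to 50.8 to 90.1 CPM, or 0.00509 to 0.00895%. With both lines scaled together, the mean MT2A level in ALDHbr DMSO cells was 1578 CPM in SUM159 and 19.9 CPM in SW620, a ratio of 79.2, and the ratio was 64.4 in ALDHneg DMSO cells. MT1X, an isoform that responds to metals and to hypoxia, was 15.1 and 19.3 times as high in SUM159 in the same groups. MT1E, an isoform that many carcinoma lines express, was only 1.55 and 2.16 times as high. For each of these 3 genes, each SUM159 library lay above each SW620 library. The ratios are descriptions without a test.

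To set members against each other, levels were divided by the length of the canonical transcript, which is 401 nucleotides for MT2A, 404 for MT1X and 746 for MT1E. On this scale of CPM per kilobase, the median over the 12 SUM159 libraries was 3337 for MT2A, 169 for MT1X and 128 for MT1E. The 12 SW620 libraries had medians of 50.3 for MT2A, 60.3 for MT1E and 9.15 for MT1X, and MT1F stood at 0.751. The range of MT1E in SW620 was 41.6 to 82.2 and that of MT2A was 35.9 to 73.1, so these neighbours in the order overlapped. The range of MT1X (92.6 to 262) and that of MT1E (108 to 183) overlapped in SUM159 as well. An MT1E transcript shorter than the canonical one would raise its value on this scale.

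**Figure D1:**
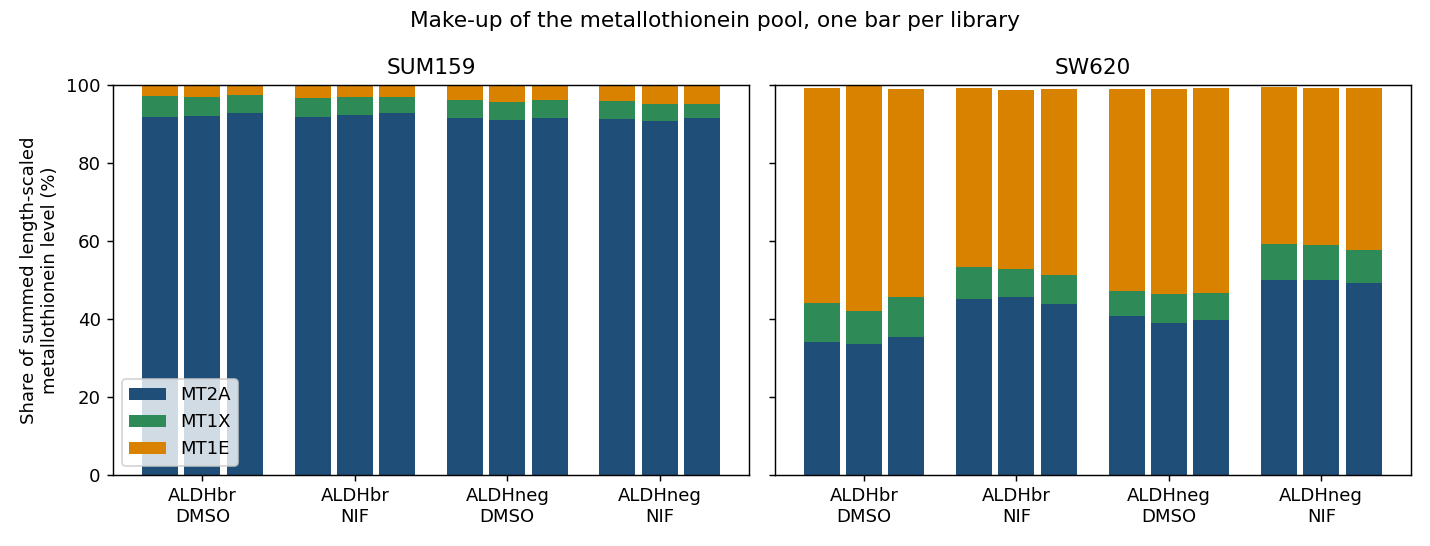
Share of each of the 3 abundant members in the summed CPM per kilobase of the family (y axis, %), with 1 bar for each library, in SUM159 (left) and SW620 (right). MT2A made up most of the length-scaled pool in SUM159, with group means of 91.2 to 92.3%, while in SW620 its share rose from 34.3 to 44.7% (ALDHbr) and from 39.8 to 49.7% (ALDHneg) between DMSO and NIF.

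In SUM159 all 3 measurable members were lower under NIF than under DMSO in both sorted populations. In each case the 3 NIF libraries lay below the 3 DMSO libraries. The share of all tested genes whose groups did not overlap was not counted in either line. Groups without overlap are therefore a description only. MT2A and MT1X passed the test in both SUM159 populations, and MT1E passed it in ALDHneg cells of this line. In sorted bulk samples, fewer cells that make a transcript and less of it in each cell cannot be told apart. By the study's methods the libraries of a group came from independent experiments, so the p-values measure the spread between experiments. Which experiment a library number stands for is not given in the sources used here.

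In ALDHbr SUM159 cells MT2A stood at 1769.9, 1636 and 1637 CPM under DMSO (libraries 1 to 3) and at 1220.3, 1345 and 1331 CPM under NIF. The lowest DMSO library was thus above the highest NIF library, and MT2A fell by 0.37 on the log2 scale (SE 0.07, edgeR quasi-likelihood test, adjusted p = 0.00876). In ALDHneg cells it went from 1492, 1552 and 1324 CPM to 985, 1021 and 930.4 CPM. That is a fall by 0.57 (SE 0.07, adjusted p = 0.000422), and the groups did not overlap.

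MT1X followed MT2A. In ALDHbr cells it was at 106, 87.3 and 79.3 CPM under DMSO and at 68.1, 68.0 and 57.4 CPM under NIF, and it fell by 0.49 (SE 0.12, adjusted p = 0.0348). In ALDHneg cells it was at 77.2, 80.4 and 67.5 CPM under DMSO and at 48.2, 50.1 and 37.4 CPM under NIF, a fall by 0.73 (SE 0.12, adjusted p = 0.00374). The 4 groups kept the third library lowest throughout, and libraries with the same number deviated together in this line.

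MT1E changed least. Its ALDHneg values were 116, 136 and 106 CPM under DMSO and 84.998, 99.6 and 91.4 CPM under NIF, a fall by 0.38 (SE 0.09, adjusted p = 0.0366). Its ALDHbr values were 103, 104 and 87.0 CPM under DMSO and 80.5, 82.8 and 84.5 CPM under NIF, and the log2 difference of -0.25 (SE 0.09) missed the threshold (adjusted p = 0.17). With the replicate number as a block, which the pairing of the libraries in this line allows, the same difference passed (-0.24, adjusted p = 0.0139).

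Of the 3 tested members 2 were thus called in ALDHbr cells, where 3.16% of 14953 tested genes were called, and 3 of 3 in ALDHneg cells, where 3.3% were called. With the replicate block the called genes rose to 1994 (13.3%) and 1970 (13.2%) of 14953, and all 3 members were among them in each population. In fits without the block the ALDHbr calls were less firm, and the fits with a library left out had no block. Without the first NIF or the first DMSO library of ALDHbr cells none of the 3 passed, and MT1X was lost in 5 of 6 such fits, with adjusted p up to 0.178. In ALDHneg cells MT2A and MT1X passed in 6 of 6 fits that left out a library, and MT1E in 2 of 6. Of 10 mesenchymal markers 0 were called by edgeR or DESeq2 in either SUM159 population, with 1 in each at an unadjusted p under 0.05. With the block 4 were called in ALDHbr cells (CAV1, FN1, LOX and VIM) and 3 in ALDHneg cells (CDH2, SNAI2 and VIM), and their part in the metallothionein levels was not tested. The size of the NIF difference was not shown to depend on the population: the interaction was 0.20 for MT2A, 0.23 for MT1X and 0.13 for MT1E (SE 0.10, 0.17 and 0.13). No member was called by edgeR for that interaction, as was true of 0% of tested genes (0 of 14953), with 238 genes at an unadjusted p under 0.05 and 2 called by DESeq2.

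In SW620 the members parted under NIF. MT1X fell in ALDHbr cells and rose in ALDHneg cells, MT2A rose in ALDHneg cells, and MT1E fell in ALDHbr cells. MT1F, at 4 to 16 counts per library, was called in neither population.

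MT1E, the member with most reads in this line, was at 60.2, 46.1 and 61.3 CPM in ALDHbr DMSO libraries and at 31.1, 35.1 and 39.9 CPM in ALDHbr NIF libraries. It fell by 0.66 (SE 0.11, edgeR adjusted p = 0.000327), with no overlap of the groups. In ALDHneg cells it was at 48.4, 45.9 and 52.5 CPM under DMSO and at 37.02, 44.1 and 40.4 CPM under NIF. The groups did not overlap there either, but the difference of -0.27 (SE 0.11) missed the threshold (adjusted p = 0.0632). It passed with library-size scaling (-0.33, adjusted p = 0.0179), without a filter on low counts (-0.26, adjusted p = 0.046) and with only the 6 libraries compared (-0.26, adjusted p = 0.000225), but not with DESeq2 (adjusted p = 0.0647).

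MT1X went in opposite directions. In ALDHbr cells it was at 5.87, 3.74 and 6.38 CPM under DMSO and at 3.04, 2.95 and 3.46 CPM under NIF, a fall by 0.77 (SE 0.17, adjusted p = 0.00223). In ALDHneg cells it was at 3.22, 3.42 and 3.65 CPM under DMSO and at 4.69, 5.26 and 4.41 CPM under NIF, a rise of 0.48 (SE 0.17, adjusted p = 0.0283). All 3 NIF libraries lay below the DMSO libraries in the first population and above them in the second. These levels rest on 91 to 244 counts per library, so their precision is lower than in SUM159.

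MT2A rose in ALDHneg cells, while its ALDHbr groups overlapped. It was at 20.4, 18.2 and 21.3 CPM under DMSO and at 24.7, 29.3 and 25.8 CPM under NIF there, a rise of 0.42 (SE 0.13, adjusted p = 0.0153). In ALDHbr cells it was at 20.0, 14.4 and 21.8 CPM under DMSO and at 16.4, 18.6 and 19.7 CPM under NIF, and the difference was not called (-0.04, SE 0.13, adjusted p = 0.815). The rise in ALDHneg cells was lost without the second NIF library or the second DMSO library of that population (adjusted p up to 0.0735), and that of MT1X also without the first of either (up to 0.106).

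In ALDHbr cells 2 of 4 tested members were called, both lower, against 43.3% of 13953 tested genes called there. In ALDHneg cells 2 of 4 were called, both higher, against 45.1% of genes called. A share of 2 in 4 is close to that background, so the number called is not a result about the members in SW620. Of 10 colon epithelial markers, 2 rose and 4 fell in ALDHbr cells and 2 rose and 3 fell in ALDHneg cells, and of 5 tested mesenchymal markers 2 rose and 1 fell in each. Their part in the metallothionein levels was not tested. The test of the difference between the populations, the interaction, called no member, with 0.00717% of genes (1 of 13953) called by edgeR and 771 at an unadjusted p under 0.05. For MT1X this interaction was -1.25 (SE 0.24, unadjusted p = 0.000126, adjusted p = 0.136), and it was -0.46 for MT2A and -0.39 for MT1E. DESeq2 called the MT1X interaction among 31 genes, and so did edgeR without a filter on low counts.

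Without the second ALDHbr DMSO library the falls in ALDHbr cells were larger, at -0.94 for MT1X and -0.77 for MT1E, and MT2A remained uncalled (-0.18, adjusted p = 0.117). The MT1X interaction then passed (-1.44, adjusted p = 0.0015), and MT1E in ALDHneg cells passed as well (-0.26, adjusted p = 0.0121). That library had the lowest MT2A and the lowest MT1E of its group by a wide margin, at 14.4 and 46.1 CPM.

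**Figure D2:**
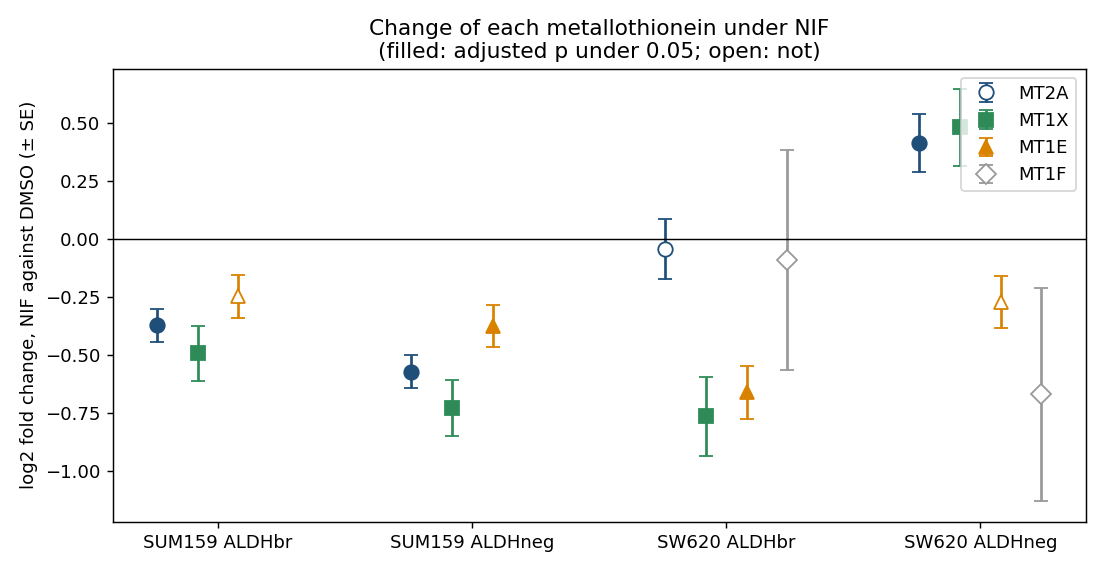
Log2 fold change of each tested member under NIF against DMSO (y axis, bars show the SE) in the 4 sorted populations, with filled symbols for an adjusted p under 0.05. MT1X and MT2A lie below 0 in both SUM159 populations and above 0 in SW620 ALDHneg cells, where they stand at 0.48 and 0.42.

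The metallothionein transcripts are short, and short transcripts as a class varied between SW620 libraries. The other genes with a canonical transcript of at most 600 nucleotides summed to 28137, 21720.4 and 27371 CPM in the 3 ALDHbr DMSO libraries of SW620, so the second library was low here too. They summed to 22964, 25327 and 28492 CPM under NIF in ALDHbr cells. In ALDHneg cells the 3 DMSO libraries had 21865, 22083 and 21511 CPM and the 3 NIF libraries 24292, 24840 and 24378 CPM. All 3 NIF libraries of ALDHneg cells were thus above all 3 DMSO libraries, as they were for MT2A and MT1X. The median log2 fold change of the 300 such genes tested under NIF was -0.10 in ALDHbr and 0.01 in ALDHneg cells, with 58 lower and 30 higher calls in the first and 41 lower and 42 higher in the second. In SUM159 the class ran from 21145 to 25936 CPM, and its median change was 0.01 in ALDHbr and -0.01 in ALDHneg cells over 314 genes. The part of transcript length in the SW620 levels was not tested.

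Ratios of 2 members within a library do not depend on how the library was scaled. They can still depend on transcript length. MT1E, at 746 nucleotides, lies outside the class of at most 600, while MT2A (401) and MT1X (404) lie inside it. The part of length in the ratios was not tested. In SW620 the log2 ratio of MT1E to MT2A counts went from 1.59 ± 0.09 under DMSO to 0.95 ± 0.06 under NIF in ALDHbr cells (SD, n = 3), and from 1.29 ± 0.04 to 0.61 ± 0.04 in ALDHneg cells. The ratio fell by 0.63 (SE 0.06) and 0.69 (SE 0.03), and in each population the 3 NIF values lay below the 3 DMSO values. A difference between these 2 falls was not tested. The second ALDHbr DMSO library did not stand apart in this ratio: its group ran from 1.49 to 1.68, above the highest NIF value of 1.02. The log2 ratio of MT1X to MT2A fell by 0.70 in ALDHbr cells but moved by 0.06 in ALDHneg cells, where its groups overlapped. That of MT1X to MT1E moved by -0.07 in ALDHbr cells and by 0.75 in ALDHneg cells.

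In SUM159 the MT1E to MT2A ratio moved by 0.13 (SE 0.08) in ALDHbr and 0.20 (SE 0.08) in ALDHneg cells, with overlapping groups. Within the 3 pairs of libraries with the same number it moved by 0.16, 0.15 and 0.29 in ALDHneg cells, higher under NIF in each, and by 0.18, -0.05 and 0.26 in ALDHbr cells. The ratio of MT1X to MT1E moved by -0.37 (SE 0.15) and that of MT1X to MT2A by -0.17 (SE 0.10) in ALDHneg cells, both without overlap of the groups. In ALDHbr cells these ratios moved by -0.24 and -0.12, and their groups overlapped. Both ratios were lower under NIF in 3 of 3 pairs in each population. Over the 12 ratio comparisons the two-sided exact permutation test gave p = 0.1 in 6, the smallest value that 3 against 3 libraries allow, and none was below 0.2 after Benjamini-Hochberg adjustment. The permutation test takes the libraries as unpaired, and no other test was run on the ratios.

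The direction of the NIF difference in ALDHneg cells was not the same in the lines. In 1 fit of all 24 libraries, the NIF effect on MT2A in ALDHneg cells was 1.00 log2 higher in SW620 than in SUM159 (SE 0.15, adjusted p = 1.79e-05), and that on MT1X was 1.22 higher (SE 0.22, adjusted p = 0.000167). For both genes each SUM159 NIF library lay below its DMSO libraries and each SW620 NIF library above. MT1E differed by 0.11 (SE 0.15, adjusted p = 0.69). Of 3 members 2 were called, against 22.4% of 16271 genes. In ALDHbr cells no member was called by edgeR, against 23.1% of genes, with MT1E at -0.42 (SE 0.16, adjusted p = 0.0566), MT2A at 0.33 (adjusted p = 0.123) and MT1X at -0.28 (adjusted p = 0.419). MT1E and MT2A had an unadjusted p under 0.05 there, as had 5459 genes, and DESeq2 called MT1E. With the replicate block MT1E passed (-0.42, adjusted p = 0.0233), as it did without the second ALDHbr DMSO library of SW620 (-0.54, adjusted p = 0.00663) or the third ALDHbr NIF library (-0.49, adjusted p = 0.0213). MT2A passed without the third ALDHbr DMSO library of SW620 (0.45, adjusted p = 0.0375).

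The comparison of ALDHbr with ALDHneg cells used the same libraries as that of NIF. In SUM159 under DMSO MT2A was higher in ALDHbr cells by 0.21 (SE 0.07, adjusted p = 0.046), with means of 1681 ± 77.1 and 1456 ± 118 CPM (SD, n = 3). MT1E was lower by 0.28 (SE 0.09, adjusted p = 0.0363), with means of 98.1 ± 9.67 and 119 ± 15.2 CPM. MT1X, at 90.8 ± 13.6 against 75.03 ± 6.71 CPM, missed the threshold (0.28, adjusted p = 0.113) and passed with the replicate block (0.27, adjusted p = 0.00102). Of 3 members 2 were called against 23% of genes, and neither call was stable: with only the 6 libraries compared none passed. Under NIF MT2A was 0.41 higher (SE 0.07, adjusted p = 0.000641) and MT1X 0.51 higher (SE 0.12, adjusted p = 0.00653) in ALDHbr cells, and both passed in each of 13 alternatives. MT1E was at -0.15 there (adjusted p = 0.258), and 21.9% of genes were called.

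In SW620 under DMSO MT1X was 0.64 higher in the ALDHbr than the ALDHneg population (SE 0.16, adjusted p = 0.0249), at 5.33 ± 1.40 against 3.43 ± 0.216 CPM, where 11.3% of genes were called. MT1E (0.19, adjusted p = 0.244) and MT2A (-0.09, adjusted p = 0.662) were not called. The median of the 300 short-transcript genes was 0.19 in this comparison. Without the second ALDHbr DMSO library, MT1X rose to 0.82 (adjusted p = 0.000175) and MT1E passed (0.30, adjusted p = 0.0145), while without any 1 of the other 5 libraries MT1X did not pass. Under NIF MT1X was lower in ALDHbr cells by 0.61 (SE 0.17, adjusted p = 0.0493) and MT2A by 0.55 (SE 0.13, adjusted p = 0.0197), against 6.67% of genes called. MT2A was at 18.2 ± 1.70 CPM in ALDHbr and 26.6 ± 2.38 CPM in ALDHneg cells. Of the 2 calls, that of MT1X was lost in 6 of 6 fits that left out 1 of the libraries compared, and that of MT2A in 4 of 6.

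Across the 12 SUM159 libraries log2 CPM of MT1X and MT2A had a Pearson r of 0.956, whereas MT1E had r of 0.401 with MT1X and 0.403 with MT2A. In the 12 SW620 libraries the r was 0.547 for MT1X and MT2A, 0.626 for MT1E and MT1X, and 0.112 for MT1E and MT2A. These are descriptions over libraries that fall into 4 groups and share treatment. By the same measure, over 14953 genes, the nearest to MT2A in SUM159 were RNF145 (r = 0.973), TBC1D8 (0.970), TNIP1 (0.961), RRAS (0.960) and SLC20A1 (0.956). The nearest to MT1X were CXCL8 (0.967), which encodes a neutrophil chemokine, PXMP2 (0.956), CXCL2 (0.955), another chemokine, RNF145 (0.953) and TBC1D8 (0.948). RNF145 and TBC1D8 stood in both lists of SUM159. In SW620 the nearest to MT2A were SNX8 (0.935), IFI35 (0.932), PITX1 (0.931), ARHGDIA (0.929) and HLA-C (0.910). Those nearest to MT1X were ENDOV (0.901), OXLD1 (0.875), ZNF763 (0.865), ILKAP (0.850) and CLEC11A (0.845), so no gene of the SUM159 lists returned.

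The members were also set beside genes that handle the same metals. SLC30A1, the zinc exporter of the plasma membrane and a standard target of MTF1, was called in none of the 4 NIF comparisons (0.08 and 0.04 in SUM159, 0.09 and 0.11 in SW620, ALDHbr first). MTF1 itself was not called either (0.04, 0.18, 0.24 and 0.07). Of 7 genes in the list of MTF1 and other targets, 1 rose in SUM159 ALDHbr cells and 2 in ALDHneg cells, and none fell. GCLC, the catalytic subunit for glutathione synthesis, rose in both (0.48 and 0.32), and NDRG1, a gene of metal and hypoxia stress, rose in ALDHneg cells (0.55). In ALDHbr cells NDRG1 was at 0.39 (adjusted p = 0.0824), and the replicate block and DESeq2 each called it there, which makes 2 of 7 in each population by either. In SW620 GCLC rose by 1.38 and 1.37, while SELENOH, a nucleolar selenoprotein, fell by 0.48 and 0.37 and TXNRD2, a mitochondrial thioredoxin reductase, fell by 0.25 in ALDHbr cells. The medians of the list were 0.16 and 0.11 in SUM159 and -0.02 and -0.04 in SW620, beside medians of all tested genes from -0.0076 to 0.0033.

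Zinc transporters in SUM159 gave no call by edgeR under NIF, with 0 of 8 exporters of the SLC30 family and 0 of 11 importers of the SLC39 family in each population. At an unadjusted p under 0.05 there were 0 exporters in either population and 1 importer in ALDHbr and 2 in ALDHneg cells. DESeq2 and the replicate block called 1 importer, SLC39A10, in ALDHbr cells. Of 14 genes of copper handling 0 were called by edgeR or DESeq2 in either population, with 1 in each at an unadjusted p under 0.05 and 1 in each with the replicate block. In SW620, SLC30A5, which loads zinc into the early secretory pathway, was the 1 of 7 exporters called, and it rose in both populations (0.34 and 0.32). SLC39A13, an importer that moves zinc out of the secretory pathway, rose by 0.84 and 0.81, from 19.2 ± 1.17 to 34.3 ± 0.676 CPM in ALDHbr cells (SD, n = 3). SLC39A8, a zinc and manganese importer, fell by 0.27 and 0.38, and SLC39A1, another zinc importer, fell by 0.26 and 0.29. In all, 2 of 12 importers rose and 2 fell in ALDHbr cells, and 1 rose and 3 fell in ALDHneg cells. Of 14 copper genes, 3 rose and 4 fell in ALDHbr and 3 rose and 3 fell in ALDHneg cells. CCS, the copper chaperone of superoxide dismutase, rose by 0.70 and 0.75 and SLC31A2, a copper transporter, by 0.49 and 0.92. COX11 and SCO1, which deliver copper to cytochrome c oxidase, fell by 0.41 and 0.30 in ALDHbr and by 0.47 and 0.42 in ALDHneg cells. These counts stand beside the 43.3% and 45.1% of all genes called, and nothing particular to the lists follows from them.

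**Figure D3:**
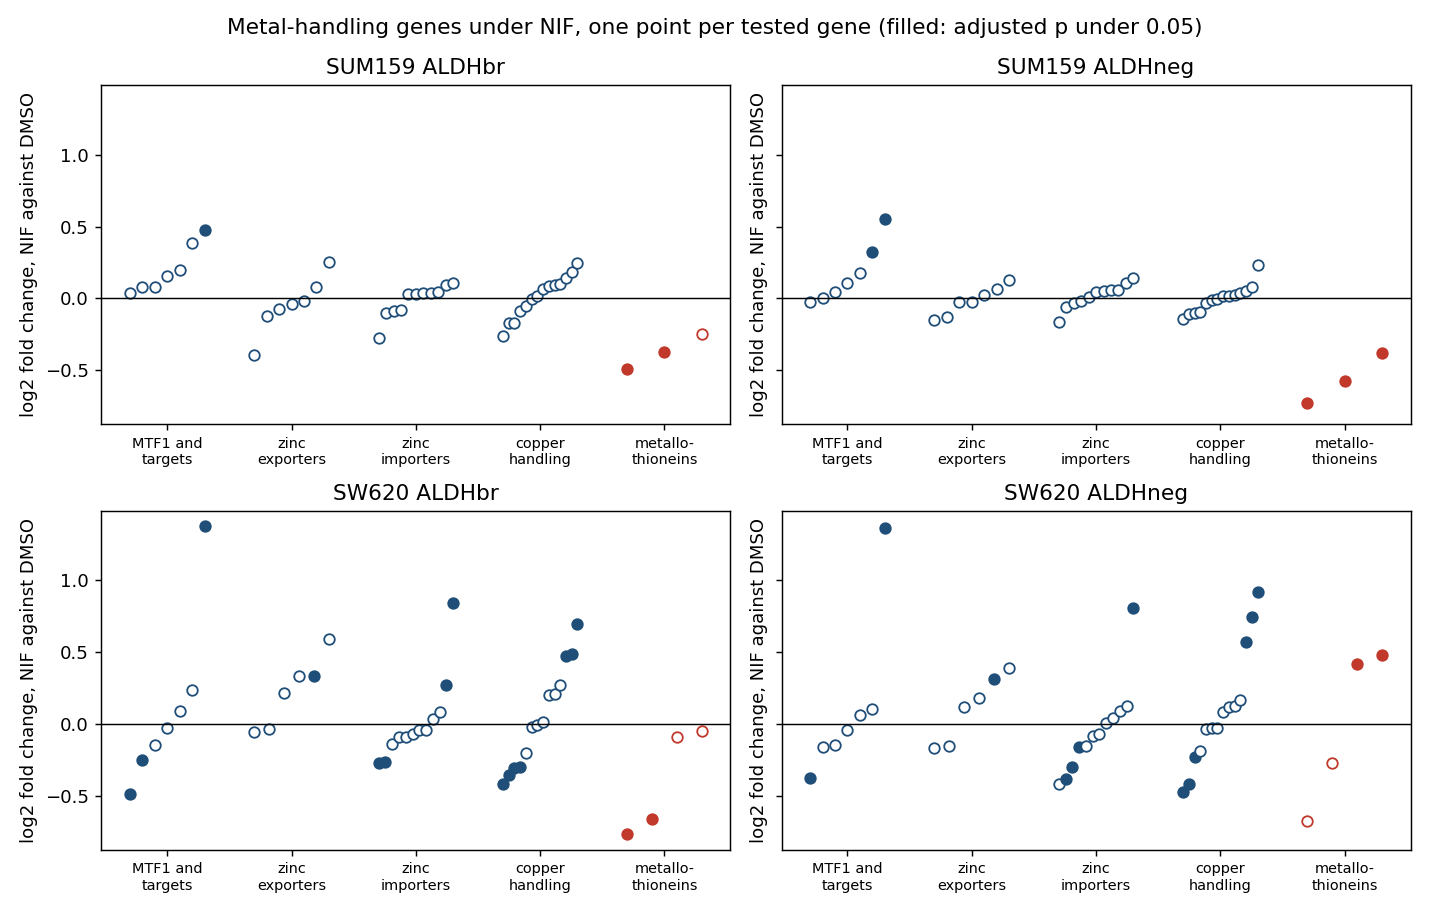
Log2 fold change under NIF against DMSO (y axes) of each tested gene in 4 lists of metal handling and of the tested metallothioneins, in the 4 sorted populations, with filled points for an adjusted p under 0.05 and SLC30A1 shown once, among the MTF1 targets. In SUM159 the filled metallothionein points lie below 0 and the other filled points above 0, whereas in SW620 filled points lie on both sides of 0 among MTF1 targets, zinc importers and copper genes.

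HMOX1, the haem oxygenase that oxidants, electrophiles and heavy metals induce, rose in all 4 populations, by 1.89 and 1.42 in SUM159 and by 1.75 and 1.83 in SW620. Its rise and the fall of MT2A and MT1X thus stood side by side in SUM159. Of 9 glucocorticoid receptor targets, ERRFI1, a feedback inhibitor of the EGF receptor, rose in both SUM159 populations (0.28 and 0.34), and KLF9, a transcription factor, fell in both (-0.47 and -0.50). DUSP1, a MAP kinase phosphatase, rose in ALDHneg cells (0.31). In SUM159 2 and 3 of the 9 were called, beside 3.16% and 3.3% of all genes, and with the replicate block 6 in each population, beside 13.3% and 13.2%. These shares were above those of all genes, with calls in both directions. With the block DUSP1, ERRFI1 and SGK1 were called with a higher mean CPM under NIF in both SUM159 populations. FKBP5, KLF9 and TSC22D3 were called with a lower mean CPM in both. The list was chosen with earlier results of these data known, and no test of it as a set was run. In SW620 4 of 8 rose in each population and 1 fell in ALDHbr cells, among them KLF9 (2.12 and 2.53) and ERRFI1 (1.52 and 1.48) upwards and TSC22D3 (-0.36) downwards. That is 5 of 8 and 4 of 8 called, near the 43.3% and 45.1% of all genes. KLF9 fell in SUM159 and rose in SW620 in both populations.

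The members are close copies, so part of their reads could have been shared by the counting. Between canonical transcripts, identity over aligned bases ran from 80.3% (MT1G and MT1M) to 90.4% (MT1G and MT1H), and it was 84.6% for MT1X and MT2A. Of the 327 windows of 75 bases in the MT2A transcript none occurred in a transcript of another gene, and of the 672 in MT1E 1.64% did. For MT1X 36.1% of 330 windows also occurred elsewhere, in MT1G, in the pseudogene MT1XP1 and in 1 unnamed gene. How the counting treated such reads is not given in the sources used here, so MT1X levels carry that uncertainty in addition to their SE.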

How the data were processed

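RNA of 24 sorted-cell libraries, prepared with a stranded total RNA kit, had been sequenced by the authors. Their deposited table holds raw read counts per gene. The submitters' processing notes name FastQC, STAR and the build GRCh38. The counting tool and annotation are not given in the sources used here. The reported members are the 8 table rows with their symbols. The members and gene lists were chosen with earlier results of these data known.

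Each line was fitted apart (12 libraries, 4 groups) with edgeR 4.0.16 in R 4.3.3: filterByExpr, TMM scaling and quasi-likelihood F tests, with p-values adjusted (Benjamini-Hochberg) over all tested genes and a threshold of 0.05. Differences between lines came from 1 fit of 24 libraries. Standard errors are the log2 fold change over the square root of F. CPM values are counts scaled by the TMM-adjusted library size, and correlations used log2 CPM with a prior count of 2. A member that failed the filter in a line was called too low to judge there. All 8 members were named. List genes were named where called in the same direction in both populations of a line, at most the 2 highest and 2 lowest. NDRG1, TXNRD2, TSC22D3, SLC39A10, DUSP1 (SUM159), FKBP5, SGK1 and the mesenchymal markers named were chosen after their values were seen. SLC30A1, MTF1 and HMOX1 were always named. The marker lists and ALDH1A1 served as checks. The class of transcripts of at most 600 nucleotides (GENCODE) was added after seeing the data. The scripts were tested on simulated data.

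No 2 libraries of a group agreed within sampling noise. Same-numbered SUM159 libraries deviated together (12 of 12 correlations of deviations over 0.1, from 0.18 to 0.45). Their numbers were taken as pairs only in the replicate block and in the ratios within pairs. The main fits had no block. In SW620 1 of 12 passed 0.1 (-0.28 to 0.21). Alternatives were DESeq2 1.42.0, RLE and library-size scaling, no filter, a replicate block, only the libraries compared, all 24 libraries, and each library left out.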

Additional observations from a re-analysis of the deposited data

Results flagged for a closer look

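The NIF effect in ALDHneg cells differed between the lines for MT1X and for MT2A, by the test of the difference itself. The difference, SW620 minus SUM159, was 1.22 log2 for MT1X and 1.00 log2 for MT2A (edgeR, adjusted p = 0.000167 and 1.79e-05), where 22.4% of 16271 genes were called. MT1X and MT2A were lower under NIF in 3 of 3 SUM159 libraries and higher in 3 of 3 SW620 libraries. The share of all genes that separate in this way was not counted, so the separation is a description only. Both differences passed in 17 of 17 alternatives, from 1.105 to 1.30 for MT1X and from 0.92 to 1.06 for MT2A. The other short-transcript genes were higher under NIF in SW620 ALDHneg libraries as a sum and had a median difference of 0.02 between the lines over 376 genes.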

How the results depend on the processing

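Of 41 results for single members, 36 kept their direction in every alternative. Over their 597 alternatives, 520 kept direction and side of the threshold, 50 lost the call, 18 gained it and 9 turned direction. The turned values concern members that were not called. With 1 library left out, the NIF difference in SW620 ALDHbr cells ran from -0.1847 to 0.0769 for MT2A and from -0.4131 to 0.3319 for MT1F, turning positive without ALDHbr NIF replicate 1 (0.0369 and 0.3319), without ALDHbr DMSO replicate 1 (0.0059 and 0.1148) and without ALDHbr DMSO replicate 3 (0.0769 and 0.1428). In the SW620 sort under DMSO MT2A ran from -0.2096 to 0.053 and MT1F from -0.5215 to 0.0351, positive without ALDHbr DMSO replicate 2, and under NIF MT1F ran from -0.0118 to 0.693, negative without ALDHbr NIF replicate 2.

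Leaving out 1 library moved the number of members called from 2 to between 0 and 2 under NIF in SUM159 ALDHbr cells and in the SW620 sort under NIF, from 2 to between 0 and 3 under NIF in SW620 ALDHneg cells, and from 2 to between 0 and 1 in the SUM159 sort under DMSO. It moved the SW620 sort under DMSO from 1 to between 0 and 2, and the SW620 interaction and the line difference in ALDHbr cells from 0 to between 0 and 1. In the SUM159 sort under DMSO 1 member passed with library-size scaling, 0 with only the 6 libraries compared and 0 with all 24 libraries in 1 fit. In the SW620 sort 0 passed under DMSO with only the 6 libraries, and 1 passed under NIF with the replicate block and 1 with all 24 libraries. The SW620 interaction gained 1, MT1X, with DESeq2 and without a filter. The ALDHbr line difference gained 1, MT1E, with DESeq2, library-size scaling, no filter and the replicate block. The cause was not tested. SW620 numbers do not pair its libraries. The replicate block changed no other call of a member than those given here and in the report. Among zinc importers in SW620 ALDHneg cells it called 3, against 4 without it.

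Counts of called genes moved by over 1.5 times as follows. Under NIF in SUM159, 473 (ALDHbr) and 493 (ALDHneg) became 854 and 855 with DESeq2, 725 and 743 with all 24 libraries, 1994 and 1970 with the replicate block, and 292 (ALDHneg) with only 6 libraries. Single left-out libraries gave 222 to 322 and 192 to 584. The SUM159 sort counts of 3432 and 3281 became 5388 and 5270 with the replicate block. The SUM159 interaction count of 0 became 2 with DESeq2, 3 without a filter, 6 with the block and 1 with all 24 libraries, and the SW620 interaction count of 1 became 31, 4, 2 and 4, and 4 with library-size scaling. With 1 library left out the interaction gave 0 to 2 in SUM159, and in SW620 1 to 27, with 27 without the second ALDHbr DMSO library. The SW620 sort under DMSO went from 1577 to 729 with only 6 libraries and to 712 to 5487 with 1 library left out, and that under NIF from 931 to 494 to 1782, the highest in each without the second ALDHbr DMSO library. Library-size scaling moved the split of higher and lower calls from 3114 and 3172 to 2578 and 3957 (SW620 ALDHneg under NIF), from 476 and 455 to 584 and 367 (SW620 sort under NIF) and from 1939 and 1702 to 1615 and 2335 (line difference in ALDHneg). No scaling moved the median of all genes by over 0.1 log2. Members at a few counts per library are limited by depth. The fits without the second SW620 ALDHbr DMSO library in comparisons that do not use it were chosen after seeing the data.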
